A study of Mus musculus with 43 samples.

Results

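The mouse Toll-like receptor genes Tlr1, Tlr2, Tlr3, Tlr4, Tlr5, Tlr6, Tlr7, Tlr8, Tlr9 and Tlr13 were followed through glial cells purified from the cerebral cortex. These 10 genes were chosen by name, and each had a row among the 55416 genes counted in every one of the 43 RNA-seq libraries. Toll-like receptors are membrane proteins that recognise conserved microbial molecules and self nucleic acids, and they signal through the adaptors MyD88 and TRIF to NF-κB and interferon regulatory factors. TLR1, TLR2, TLR4, TLR5 and TLR6 act mainly at the cell surface on lipopeptides, lipopolysaccharide and flagellin, whereas TLR3, TLR7, TLR8, TLR9 and TLR13 act in endosomes on RNA or DNA. In the brain they are best known from microglia, the resident macrophages, and TLR3 is also known from astrocytes.

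The study asked how the absence of lymphocytes changes glial gene expression. Rag2-/- mice, which cannot rearrange antigen receptor genes and so lack mature T and B cells, were paired with immunocompetent littermates from the same colony. Mice were 3 months old and formed 6 pairs. The control mice were Rag2+/- in pairs 1, 2, 3 and 5 and Rag2+/+ in pairs 4 and 6, and the knockout was germline, so that all cells of the Rag2-/- mice carried it. A single cell suspension of the cortex of 1 perfused mouse was passed over dishes coated with anti-CD45 (microglia), anti-PDGFRα (oligodendrocyte precursor cells, OPCs), GalC antibody (oligodendrocytes) and anti-HepaCAM (astrocytes). CD45 is carried by other leukocytes too. This gave 6 control and 6 Rag2-/- microglia libraries, 6 and 6 astrocyte libraries, 6 and 5 OPC libraries (no Rag2-/- library of pair 5) and 4 and 4 oligodendrocyte libraries (pairs 1, 3, 5 and 6). Sequencing was arranged by cell type, with 1 lane for all libraries of a type. A lane's part in differences among cell types cannot be told apart from that of the cells.

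The libraries held 6499417 to 23118497 read pairs assigned to genes, so that 1 count was worth 0.0433 to 0.154 CPM, the count scaled to a common library total, and a count of 0 allowed up to 0.13 to 0.462 CPM, as counting error only. All levels use CPM with every gene count in the total. Mitochondrially encoded genes took 6.75 to 11.7% of counts in microglia, 22.5 to 45.1% in astrocytes, 22.4 to 36.7% in OPCs and 45.8 to 60.1% in oligodendrocytes. For Rag2 itself no library of the 21 Rag2-/- ones had a count and the 22 control ones had at most 4, so its level checked the genotype labels only weakly. The summed CPM of 11 microglia markers (P2ry12, Tmem119, Cx3cr1 and others) was 13030 to 15888 in microglia, 97 to 388 in astrocytes, 305 to 1573 in OPCs and 226 to 1199 in oligodendrocytes. In each of these last 3 cell types the libraries of pair 3 had the highest sums. In bulk samples, fewer cells of a type and less RNA per cell cannot be told apart.

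Tlr9, Tlr2, Tlr7 and Tlr13 led the family in microglia, Tlr3 made up nearly all of it in astrocytes, and the OPC and oligodendrocyte libraries held low levels of most members. Levels of different genes were compared as CPM per kb of exon. In the 12 microglia libraries Tlr9, an endosomal receptor for CpG DNA, stood at 122 ± 14.9 CPM per kb (SD) and Tlr2, the shared subunit of the lipopeptide receptors, at 121 ± 8.59. Tlr9 held 31.3% and Tlr2 31.0% of the members' summed CPM per kb. Tlr7, which senses single-stranded RNA, followed with 55.3 CPM per kb (14.1%), Tlr13, which senses bacterial ribosomal RNA in mice, with 44.5 (11.4%) and Tlr1, a partner of Tlr2, with 25.2 (6.38%). Tlr6, the other partner of Tlr2, had 6.86 CPM per kb, Tlr4, the lipopolysaccharide receptor, 6.23, Tlr3, the double-stranded RNA receptor, 5.86, Tlr5, the flagellin receptor, 2.79 and Tlr8 1.02. Summed over the 5 surface receptors the microglia libraries held 162 ± 13.2 CPM per kb, and summed over the 5 endosomal receptors 229 ± 24.7.

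In the 12 astrocyte libraries Tlr3 stood at 42.8 CPM per kb and held 95.3 ± 3.43% of the members' sum. Tlr4 came next with 0.424 CPM per kb. In OPCs the first 3 places were taken by Tlr3 with 6.23 ± 3.33, Tlr9 with 4.70 ± 3.58 and Tlr2 with 4.02 ± 2.91 CPM per kb (n = 11). In oligodendrocytes Tlr9 with 2.83 ± 2.69 and Tlr7 with 2.73 ± 1.59 CPM per kb (n = 8) came first by mean, with overlapping ranges. The Tlr9 mean leaned on the control and Rag2-/- libraries of pair 3, at 23.9 and 24.9 CPM beside a median of 6.26. Its first place is therefore not firm.

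**Figure D1:**
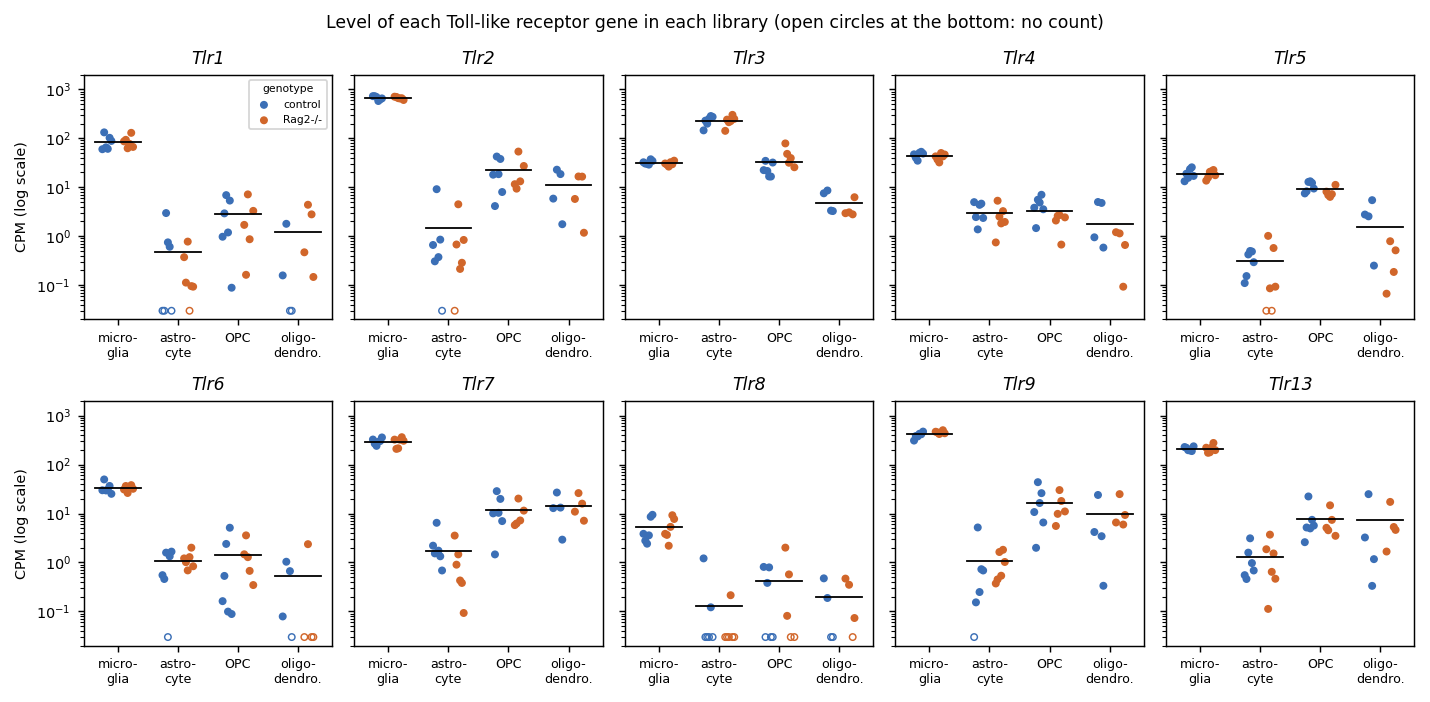
Level of each of the 10 genes in CPM (log axis) in the microglia, astrocyte, OPC and oligodendrocyte libraries; dots are libraries coloured by genotype, black lines are means and open circles at the bottom are libraries without a count. In 9 panels the 12 microglia libraries sit above the libraries of the other 3 cell types, while in the Tlr3 panel the astrocyte libraries, at 142 to 300 CPM, sit above all others. For Tlr5 and Tlr8 the gap to OPCs closes in CPM without mitochondrial genes.

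Cell types were compared in a joint edgeR quasi-likelihood fit of all 43 libraries, averaged over genotype, with Benjamini-Hochberg adjustment over all genes. The fit used TMM scaling and not CPM, so its log2 differences need not match ratios of the CPM levels. Against astrocytes, 9 members were higher in microglia, where 33.5% of all genes tested were, and Tlr3 was lower, where 36.5% were. Against OPCs, 9 members were higher in microglia (30.8% of all genes) and 0 lower (38.7%), with Tlr3 not called. Against oligodendrocytes all 10 were higher in microglia (34.8% of all genes) and 0 lower (33.2%). The members' median log2 difference was 6.47 against astrocytes, 4.78 against OPCs and 4.28 against oligodendrocytes, beside medians over all genes of -0.09, -0.18 and 0.09. The lowest microglia library lay above the highest astrocyte library for 9 members (11.3% of the 39266 genes with a count did so), above the highest OPC library for 9 (7.72%) and above the highest oligodendrocyte library for 10 (13.9%). These separations hold in CPM with mitochondrial counts in the total. Without those counts the microglia and OPC libraries overlap for Tlr5 and Tlr8.

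The surface receptors other than Tlr5 were far higher in microglia than in the rest, whose order differed between members. Tlr2 had 576 to 724 CPM in microglia (median 658, n = 12), 4.12 to 53.4 in OPCs (median 18, n = 11), 1.18 to 22.8 in oligodendrocytes (median 11.2, n = 8) and 0 to 9.11 in astrocytes (median 0.518, n = 12). Microglia exceeded OPCs by 5.05 on the log2 scale (SE 0.53, edgeR adjusted p = 3.83e-11), OPCs and oligodendrocytes did not differ beyond their spread (0.0041, SE 0.52, edgeR adjusted p = 1.0), and oligodendrocytes exceeded astrocytes by 3.5 (SE 0.56, edgeR adjusted p = 1.60e-06).

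Tlr1 had 59.7 to 132 CPM in microglia (median 81.6) and at most 7.14 CPM in any other library. Its log2 excess in microglia over OPCs was 5.06 (SE 0.57, edgeR adjusted p = 2.05e-10), and neither OPCs and oligodendrocytes (0.57, SE 0.64, edgeR adjusted p = 0.504) nor oligodendrocytes and astrocytes (1.67, SE 0.76, edgeR adjusted p = 0.0659) differed beyond their spread. Tlr6 had 25.2 to 49.6 CPM in microglia (median 31.5) and at most 5.13 elsewhere. The log2 excess of Tlr6 in microglia over OPCs was 4.72 (SE 0.57, edgeR adjusted p = 1.38e-09), and its 3 lower cell types did not separate. Tlr4 had 32.0 to 52.9 CPM in microglia (median 44.6), and at most 7.01 in OPCs, 5.30 in astrocytes and 4.99 in oligodendrocytes. Its log2 excess in microglia over OPCs was 3.96 (SE 0.32, edgeR adjusted p = 1.69e-14), and again the other 3 cell types did not separate.

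Tlr5 differed from the other surface receptors in its OPC level. It had 13.2 to 25.5 CPM in microglia (median 18.2), 6.35 to 13.2 in OPCs (median 8.24), 0.0669 to 5.44 in oligodendrocytes (median 0.651) and 0 to 1.01 in astrocytes (median 0.224). The lowest microglia library and the highest OPC library nearly met, and every OPC library lay above every oligodendrocyte library (10.7% of genes did so) and every astrocyte library (6.82%). In CPM without mitochondrial genes the Tlr5 range of the OPC libraries overlapped those of the microglia and the oligodendrocyte libraries. Microglia exceeded OPCs by 1.11 on the log2 scale (SE 0.31, edgeR adjusted p = 0.00173), OPCs exceeded oligodendrocytes by 2.18 (SE 0.39, edgeR adjusted p = 1.93e-05), and oligodendrocytes exceeded astrocytes by 2.39 (SE 0.43, edgeR adjusted p = 1.33e-05). With libraries scaled to total counts without mitochondrial genes the difference of microglia and OPCs was 0.66 and was not called (edgeR adjusted p = 0.0523). Among the control libraries alone the difference of OPCs and oligodendrocytes was 0.94 (edgeR adjusted p = 0.126).

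The endosomal receptors Tlr7, Tlr9 and Tlr13 were microglial too. Tlr9 had 309 to 502 CPM in microglia (median 430), 1.99 to 43.6 in OPCs (median 11), 0.334 to 24.9 in oligodendrocytes (median 6.26) and 0 to 5.19 in astrocytes (median 0.611). Microglia exceeded OPCs by 4.89 on the log2 scale (SE 0.46, edgeR adjusted p = 1.95e-12) and oligodendrocytes exceeded astrocytes by 3.63 (SE 0.51, edgeR adjusted p = 9.48e-08), while OPCs and oligodendrocytes did not differ beyond their spread (-0.18, SE 0.44, edgeR adjusted p = 0.779). Tlr13 had 174 to 276 CPM in microglia (median 208) against at most 24.9 in other libraries, with a log2 excess over OPCs of 5.05 (SE 0.44, edgeR adjusted p = 1.86e-13).

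Tlr7 was the 1 member called higher in oligodendrocytes than in OPCs. It had 209 to 362 CPM in microglia (median 304), 2.93 to 26.8 in oligodendrocytes (median 13), 1.46 to 28.6 in OPCs (median 10.1) and 0.0931 to 6.46 in astrocytes (median 1.40). The oligodendrocyte and OPC libraries overlapped over most of their range in CPM. The log2 difference was 3.52 between microglia and oligodendrocytes (SE 0.41, edgeR adjusted p = 5.50e-10), 1.32 between oligodendrocytes and OPCs (SE 0.36, edgeR adjusted p = 0.00353) and 2.40 between OPCs and astrocytes (SE 0.38, edgeR adjusted p = 1.55e-06). Among control libraries alone the excess of oligodendrocytes over OPCs was 1.14 and was not called (edgeR adjusted p = 0.109).

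Tlr8 was the lowest member in microglia, at 2.20 to 9.41 CPM (median 3.85). It had no count in 9 of 12 astrocyte, 5 of 11 OPC and 3 of 8 oligodendrocyte libraries, and its level there was not distinguishable from 0 in most libraries at this depth. Its log2 excess in microglia over OPCs was 4.36 (SE 0.80, edgeR adjusted p = 6.80e-06).

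Tlr3 was highest in astrocytes. It had 142 to 300 CPM in astrocytes (median 234), 16.5 to 78.4 in OPCs (median 31.6), 26.4 to 37.2 in microglia (median 30.5) and 2.79 to 8.57 in oligodendrocytes (median 3.3). Every astrocyte library lay above every library of the other 3 cell types; 7.33% of genes did so against microglia, 1.70% against OPCs and 5.81% against oligodendrocytes. Astrocytes exceeded OPCs by 3.19 on the log2 scale (SE 0.18, edgeR adjusted p = 2.76e-18) and microglia exceeded oligodendrocytes by 1.83 (SE 0.20, edgeR adjusted p = 8.00e-11), whereas OPCs and microglia did not differ beyond their spread (-0.07, SE 0.16, edgeR adjusted p = 0.724). That last comparison depended on the libraries and the scaling. Among control libraries alone OPCs were lower than microglia by a log2 difference of -0.66 (edgeR adjusted p = 0.0134), and with mitochondrial counts taken out of the library size they were higher by 0.40 (edgeR adjusted p = 0.0355).

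Promoter sequences are shown for Tlr3, the member that led in astrocytes, and for Tlr9 and Tlr13, endosomal members that ranked 1 and 4 in microglia. These are the 250 bases upstream of the RefSeq start on GRCm38.p6, printed 5′ to 3′ on the gene's strand, with capitals on the motif letters. RefSeq gave 10 promoters for 8 of the 10 members, with 2 each for Tlr1 and Tlr6 and none for Tlr4 and Tlr7. Tlr3 lay at chr8:45410381-45410630 on the minus strand, Tlr9 at chr9:106222348-106222597 on the plus strand and Tlr13 at chrX:106143025-106143274 on the plus strand.
Tlr3: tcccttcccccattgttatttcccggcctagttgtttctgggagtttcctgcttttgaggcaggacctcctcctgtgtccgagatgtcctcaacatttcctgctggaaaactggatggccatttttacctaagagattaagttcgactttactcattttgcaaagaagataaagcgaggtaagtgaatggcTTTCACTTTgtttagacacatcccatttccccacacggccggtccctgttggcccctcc
Tlr9: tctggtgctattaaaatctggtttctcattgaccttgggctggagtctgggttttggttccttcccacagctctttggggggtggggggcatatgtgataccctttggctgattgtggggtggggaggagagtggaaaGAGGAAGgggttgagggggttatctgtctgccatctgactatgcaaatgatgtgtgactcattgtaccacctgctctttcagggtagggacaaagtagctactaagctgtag
Tlr13: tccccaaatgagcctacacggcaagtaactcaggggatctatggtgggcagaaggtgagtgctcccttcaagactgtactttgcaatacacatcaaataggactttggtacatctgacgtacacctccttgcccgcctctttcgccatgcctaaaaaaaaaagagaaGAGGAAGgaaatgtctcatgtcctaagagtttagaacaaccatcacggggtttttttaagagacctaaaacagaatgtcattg

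The capitals in Tlr9 and Tlr13 are GAGGAAG, letters of the core bound by ETS factors such as PU.1, the myeloid master regulator, and begin 112 and 83 bases before the start. The capitals in Tlr3 are a match on the opposite strand to AAANNGAAA, letters like those bound by interferon regulatory factors, and begin 59 bases before the start. Both strands were searched, after the sequences had been viewed, and in the 3 promoters shown each motif matched once at most. GAGGAAG occurred in 10.6% of 32851 promoters of this length and in those of Tlr9 and Tlr13 and 1 of the 2 of Tlr1, and AAANNGAAA in 9.37% and in those of Tlr2 and Tlr3 and 1 of the 2 of Tlr6, which held 3 matches that overlap each other. Tlr2, which ranked 2 in microglia and is not shown, held AAANNGAAA but no GAGGAAG. The promoters of Tlr5 and Tlr8 held neither motif. All 3 promoters shown hold a match, so they do not stand for the members as a whole. A match is a description of the letters and not of binding.

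Between the 3 cell types outside microglia, fewer members were called. Astrocytes exceeded OPCs for Tlr3 (17.1% of all genes were higher in astrocytes) and were lower for 6 members, Tlr1, Tlr2, Tlr5, Tlr7, Tlr9 and Tlr13 (25.4% of all genes). Among control libraries alone Tlr1 differed by -1.47 (SE 0.84) and was not called (edgeR adjusted p = 0.205). Astrocytes exceeded oligodendrocytes for Tlr3 (24%) and were lower for 5, Tlr2, Tlr5, Tlr7, Tlr9 and Tlr13 (25.7%). OPCs exceeded oligodendrocytes for Tlr3 and Tlr5 (25%) and were lower for Tlr7 (15.7%).

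Microglia transcripts were also present in these libraries, and their level moved with some members. Of 24 relations of a member with the summed markers, 6 had an adjusted permutation p under 0.05 for both r and rho, 3 of 9 in OPCs, 2 of 8 in oligodendrocytes and 1 of 7 in astrocytes. The share of all genes that would pass was not computed, so these counts do not set the members apart from other genes. In OPC libraries the 11 microglia markers stood at 4.13 to 5.88% of their mean CPM in microglia libraries (median 4.69%), in oligodendrocyte libraries at 3.01 to 5.82% (median 4.17%) and in astrocyte libraries at 0.874 to 2.15% (median 1.25%). The 10 members had medians of 4.14%, 3.60% and 1.14%. Tlr3 was far outside the markers' range in all 3, with 731% in astrocytes (libraries 452 to 959%), 106% in OPCs (52.8 to 250%) and 15.1% in oligodendrocytes. Tlr5 was at 50.1 ± 13.5% in OPCs (33.9 to 70.5%, n = 11) and 8.38 ± 10.1% in oligodendrocytes (0.357 to 29.0%, n = 8). The oligodendrocyte mean leaned on the control library of pair 5, at 5.44 CPM beside a median of 0.651. Its place above the markers' range rests on that library. In CPM without mitochondrial genes the oligodendrocyte percents were larger, 29.4% for Tlr3, 15.8% for Tlr5 and 5.58 to 11.1% for the markers, and the members above and below the markers' range were the same ones in all 3 cell types. Tlr4 was at 7.65% in OPCs and 6.81% in astrocytes, Tlr6 at 3.16% in astrocytes and Tlr8, from few counts, at 8.10% in OPCs and 2.47% in astrocytes, also above the markers' range. For Tlr8 a single library held 26 of the 57 counts in OPCs and another 11 of the 14 in astrocytes. Its place above the range rests on those libraries. Tlr1, Tlr2, Tlr7, Tlr9 and Tlr13 lay below that range in astrocytes, at 0.224 to 0.62%, and in OPCs, at 3.26 to 3.98%. In oligodendrocytes Tlr1, Tlr2, Tlr6 and Tlr9 lay below it, at 1.43 to 2.31%.

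**Figure D2:**
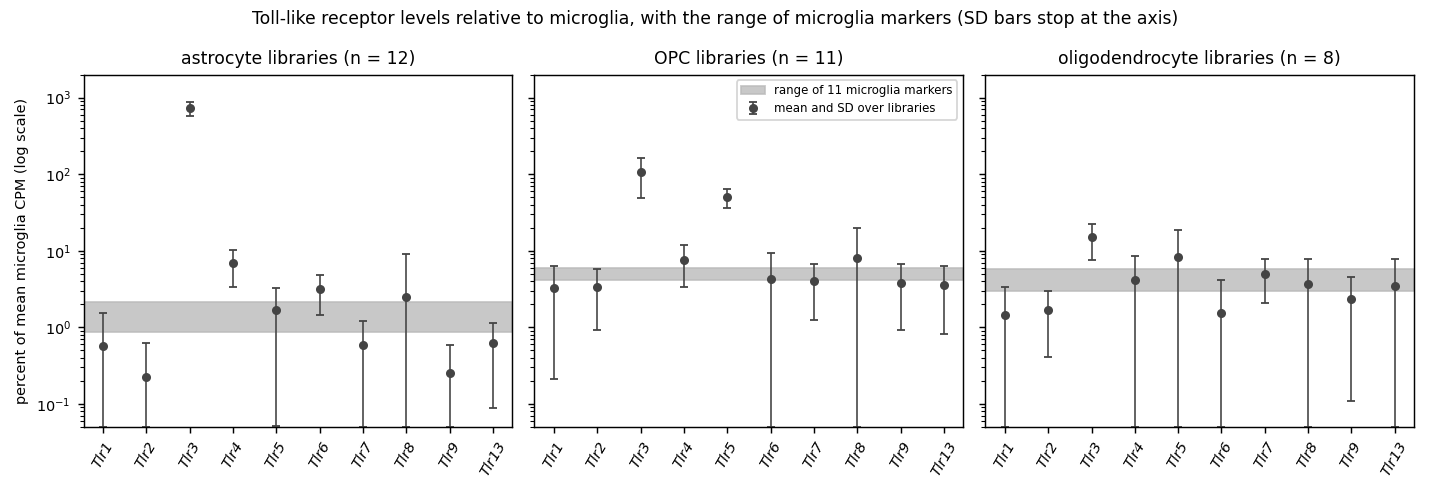
Mean level of each member in astrocyte, OPC and oligodendrocyte libraries as a percent of its mean CPM in microglia libraries (log axis; bars are SD over libraries), with a grey band for the range of the 11 microglia markers. Tlr3 stands above the band in all 3 panels, at 731% in astrocytes, and Tlr5 stands at 50.1% in OPCs where the band ends at 5.88%.

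For Tlr2, Tlr7 and Tlr9 the level in each OPC library followed the summed microglia markers of the same library. Across the 11 OPC libraries Pearson's r was 0.90 for Tlr2 (Spearman's rho 0.94), 0.86 for Tlr7 (rho 0.96) and 0.88 for Tlr9 (rho 0.93), with permutation p-values for r of 4.0e-05, 0.00012 and 0.00013 and for rho of 4.0e-05, 3.0e-05 and 9.0e-05. Adjusted over the 25 relations computed, p was 0.0010, 0.0011 and 0.0011 for r and 0.00050, 0.00050 and 0.00075 for rho. Without the 2 libraries farthest from the median marker sum r was 0.86, 0.81 and 0.85. The relation of Tlr13 (r = 0.77, permutation p = 0.0086, adjusted 0.0215, rho = 0.43, permutation p = 0.194, adjusted 0.280) rested on those libraries, with r = 0.08 without them. Tlr5 had r = 0.27 (permutation p = 0.420, adjusted 0.457) and rho = 0.23 (permutation p = 0.504, adjusted 0.586), and r = 0.66 without the 2 farthest libraries. For Tlr1 r was 0.75 (permutation p = 0.0080, adjusted 0.0215) and rho 0.65 (permutation p = 0.0333, adjusted 0.0832), with r = 0.45 without those libraries. Tlr4 had r = 0.48 (permutation p = 0.134, adjusted 0.187), rho = 0.64 (permutation p = 0.0417, adjusted 0.0949) and r = 0.58 without those libraries. Tlr6 had r = 0.29 (permutation p = 0.381, adjusted 0.433), rho = 0.21 (permutation p = 0.539, adjusted 0.586) and r = 0.15. These permutations moved libraries singly, although littermates can have similar marker sums, as the 1544 and 1573 CPM of pair 3, so that the p-values may be too small.

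In the 8 oligodendrocyte libraries Tlr7 had r = 0.93 with the microglia markers (exact permutation p = 0.00084, adjusted 0.0042), rho = 0.95 (exact permutation p = 0.0011, adjusted 0.0071) and r = 0.91 without the 2 farthest libraries. Tlr2 had r = 0.80 (exact permutation p = 0.0175, adjusted 0.0365), rho = 0.93 (exact permutation p = 0.0022, adjusted 0.0112) and r = 0.76 without them. Tlr9 had r = 0.89 (exact permutation p = 0.0054, adjusted 0.0194) but rho = 0.57 (exact permutation p = 0.151, adjusted 0.252), and r = 0.71 without the 2 farthest libraries. For Tlr13 r was 0.76 (exact permutation p = 0.0299, adjusted 0.0575) and 0.0064 without them. The 8 libraries are 4 littermate pairs with like marker sums (398 and 437, 1199 and 1031, 570 and 481, 226 and 392 CPM), which the permutations did not keep together. For Tlr3 r was 0.23 in oligodendrocytes (exact permutation p = 0.579, adjusted 0.603) and rho 0.07 (exact permutation p = 0.882, adjusted 0.885), with r = -0.08 without the 2 farthest libraries. In OPCs its r with these markers was -0.56 (permutation p = 0.0743, adjusted 0.116) and rho -0.75 (permutation p = 0.0096, adjusted 0.0301), with r = -0.85 without the 2 farthest libraries.

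Across the 12 astrocyte libraries the relation of Tlr2 with these markers did not hold without the 2 farthest libraries, and that of Tlr9 had not passed with all of them. Tlr2 had r = 0.79 (permutation p = 0.0051, adjusted 0.0194), rho = 0.40 (permutation p = 0.201, adjusted 0.280) and r = 0.01 without them, and Tlr9 r = 0.57 (permutation p = 0.0567, adjusted 0.0945), rho = 0.22 (permutation p = 0.485, adjusted 0.586) and r = -0.28. Tlr13 had r = 0.67 (permutation p = 0.0162, adjusted 0.0365), rho = 0.76 (permutation p = 0.0051, adjusted 0.0184) and r = 0.59, and Tlr7 r = 0.73 (permutation p = 0.0079, adjusted 0.0215), rho = 0.66 (permutation p = 0.0241, adjusted 0.0670) and r = 0.62. The other members tested had negative r, -0.42 for Tlr3 (permutation p = 0.169, adjusted 0.222), -0.32 for Tlr4 (permutation p = 0.312, adjusted 0.390) and -0.09 for Tlr6 (permutation p = 0.790, adjusted 0.790).

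When the microglia libraries were left out and a microglia marker score was added to the fit, astrocytes and OPCs differed for 2 of 9 members tested in place of 7 of 10. Of all genes, 23.4% were called in that fit and 42.6% with all libraries and no score. The 2 members were Tlr3, higher in astrocytes by 2.83 on the log2 scale (SE 0.25, edgeR adjusted p = 3.05e-10), and Tlr5, with a log2 difference of -4.02 (SE 0.66, edgeR adjusted p = 1.69e-05), lower in astrocytes. Tlr7 then differed by -0.33 (SE 0.45, edgeR adjusted p = 0.672) and Tlr2 by -0.87 (SE 0.58, edgeR adjusted p = 0.315). Between OPCs and oligodendrocytes the calls of Tlr3, Tlr5 and Tlr7 were made in this fit as well, 3 of 9 members beside 39.6% of all genes (40.7% with all libraries and no score). Between astrocytes and oligodendrocytes 4 of 9 members were called, Tlr3, Tlr5, Tlr7 and Tlr9, beside 37.0% of all genes (49.7% with all libraries and no score).

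Leaving out the astrocyte, OPC and oligodendrocyte libraries of pair 3, an alternative chosen after seeing the data, kept the counts of called members at 10, 9 and 10 for microglia against astrocytes, OPCs and oligodendrocytes, and gave 7, 7 and 4 between the other cell types, for astrocytes and OPCs, astrocytes and oligodendrocytes, and OPCs and oligodendrocytes. Of all genes, this fit called 68.3%, 68.1% and 66.1% in the comparisons with microglia and 37.9%, 48.0% and 39.6% in the other 3. Tlr5 was then lower in OPCs than in microglia by a log2 difference of 1.20 (edgeR adjusted p = 0.00166) and higher in OPCs than in oligodendrocytes by 2.43 (edgeR adjusted p = 7.45e-05). Tlr3 was higher in astrocytes than in OPCs by 3.22 (edgeR adjusted p = 1.74e-15), and Tlr7 in oligodendrocytes than in OPCs by 1.38 (edgeR adjusted p = 0.00225). The calls with all libraries were made in this fit as well, and the member added to them was Tlr6, higher in astrocytes (edgeR adjusted p = 0.00162) and OPCs (edgeR adjusted p = 0.0048) than in oligodendrocytes. Its fold change there depends on the prior count of the fit, since Tlr6 had 6 counts in 1 of the 6 oligodendrocyte libraries left, 1 count in another and 0 in the rest.

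Comparing Rag2-/- with control mice, no member was called in any cell type. The edgeR quasi-likelihood test with sex in the model called 0 of 10 members tested in microglia (0.00667% of all genes were called), 0 of 4 in astrocytes (0.00679%), 0 of 9 in OPCs (0.00592%) and 0 of 6 in oligodendrocytes (0%), and DESeq2 called 0 in each, where it called 3, 1, 5 and 206 of all genes. At an unadjusted p under 0.05 the counts were 1, 0, 2 and 0, where 2.91%, 2.87%, 4.02% and 3.38% of all genes tested were.

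**Figure D3:**
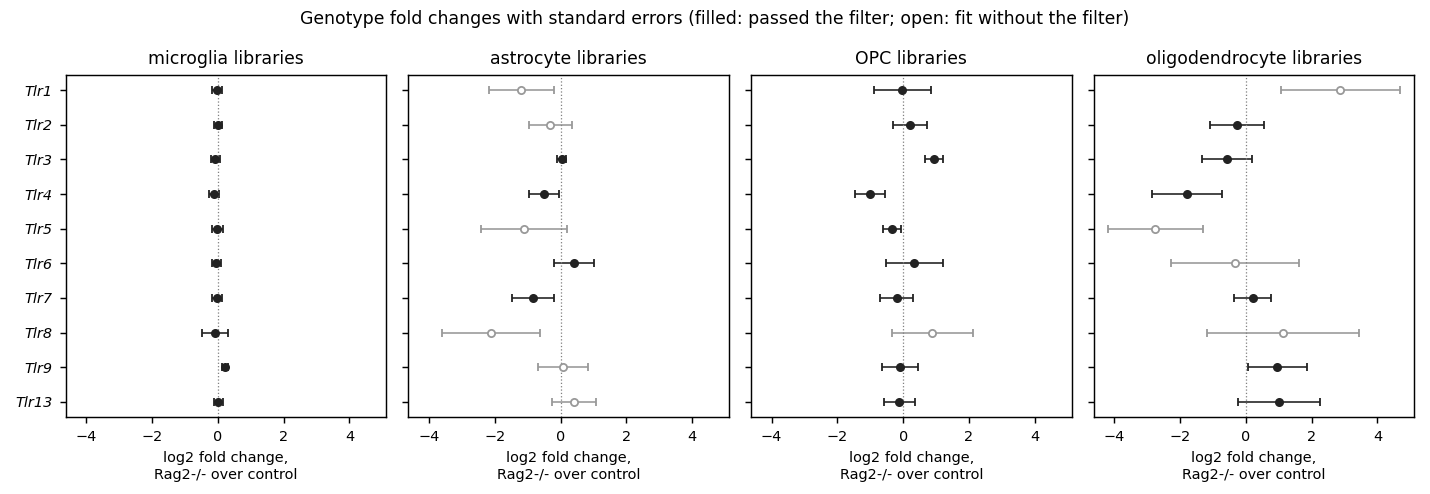
Log2 fold change of Rag2-/- over control for each member in the 4 cell types, with bars of 1 SE from the edgeR fit; filled points passed the filter on low counts and open points come from the fit without that filter. The microglia points lie between -0.12 and 0.22, with the longest bar, of 0.39, for Tlr8, while the low-count members of the other cell types have bars that reach far to both sides.

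In microglia, SEs ran from 0.099 for Tlr9 to 0.17 for Tlr5, and 0.39 for Tlr8. The log2 fold change ran from -0.12 for Tlr4 (SE 0.14, edgeR adjusted p = 0.999) to 0.22 for Tlr9 (SE 0.10, unadjusted p = 0.0344, edgeR adjusted p = 0.999). Tlr9 had 309 to 471 CPM in control microglia (median 399, n = 6) and 421 to 502 in Rag2-/- microglia (median 453, n = 6). The groups overlapped, the Rag2-/- mouse was higher in 5 of 6 littermate pairs, and the mean paired difference was 59.4 CPM. Tlr4 had 34.8 to 52.9 CPM in control microglia (median 47.8) and 32.04 to 49.96 in Rag2-/- microglia (median 42.6). It was lower in the Rag2-/- mouse of all 6 pairs, by a mean of -3.87 ± 3.41 CPM (SD), although the groups overlapped almost fully and the fit that carries the pair as a block did not call it. The other 8 members were higher in the Rag2-/- mouse in 2 to 4 of the 6 pairs. The share of all genes with every pair in 1 direction was not computed, so the pairs do not set Tlr4 apart from other genes.

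**Figure D4:**
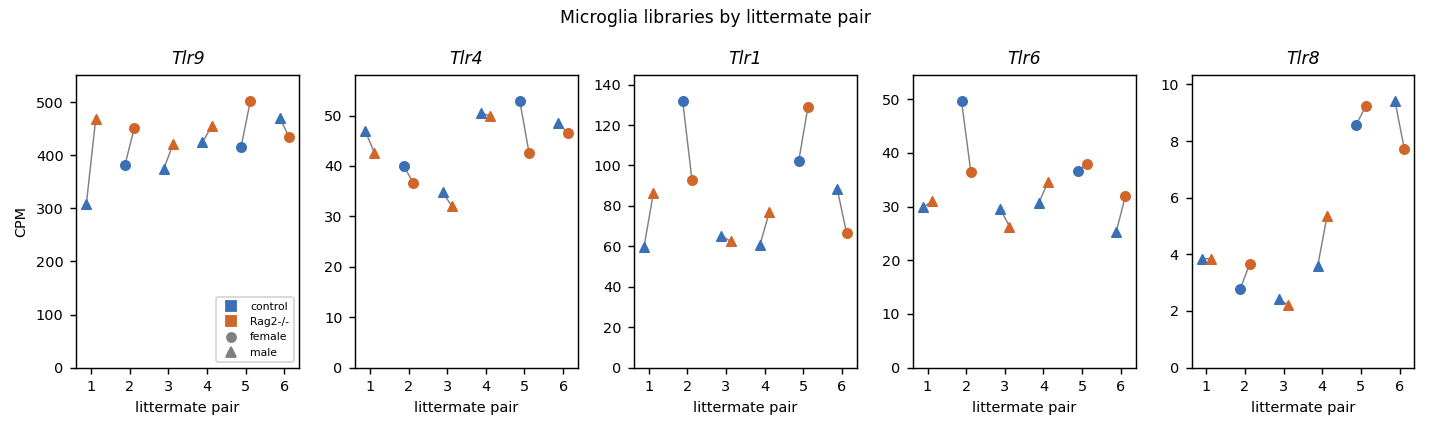
CPM of Tlr9, Tlr4, Tlr1, Tlr6 and Tlr8 in microglia libraries by littermate pair; colour marks the genotype, circles are female and triangles male mice. Tlr9 is higher in the Rag2-/- mouse of 5 pairs, Tlr4 is lower in that of all 6, and Tlr8 runs from 2.20 to 9.41 CPM.

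In OPCs the 2 members with an unadjusted p under 0.05 were Tlr3 and Tlr4. Tlr3 had 22.3, 34.6, 21.4, 16.6, 16.5 and 31.9 CPM in the control libraries of pairs 1 to 6, with a median of 21.9. In the Rag2-/- libraries of pairs 1, 2, 3, 4 and 6 it had 78.4, 48.0, 31.6, 39.4 and 25.6 CPM. The Rag2-/- library was higher in 4 of 5 pairs and the groups overlapped, with a log2 fold change of 0.93 (SE 0.27, unadjusted p = 0.0032, edgeR adjusted p = 0.9998). The fit without a filter on low counts called it (0.94, edgeR adjusted p = 0.00085), and none of the remaining alternatives did.

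Astrocyte transcripts also differed among these libraries. The summed CPM of 6 astrocyte markers was 2621 to 3211 in control OPC libraries and 6937, 4188, 2479, 3831 and 3076 in the Rag2-/- libraries of pairs 1, 2, 3, 4 and 6. In pair 3 the sum was lower in the Rag2-/- library (2621 in control) while Tlr3 was higher (31.6 against 21.4 CPM). In the other pairs both moved in the same direction. Over the 11 OPC libraries Tlr3 and this sum had r = 0.86 (permutation p = 0.00067, adjusted 0.0042) and rho = 0.82 (permutation p = 0.0032, adjusted 0.0133), and r = 0.57 without the 2 libraries farthest from the median. With the astrocyte marker score in the fit, an alternative chosen after seeing the data, the log2 fold change of Tlr3 was 0.44 (SE 0.18, edgeR adjusted p = 1.0). Without the Rag2-/- library of pair 1 it was 0.69. As a percent of its astrocyte level Tlr3 stood at 14.6% in OPCs, within the 10.8 to 22.8% of the 6 astrocyte markers, and at 13.7% in microglia, above their 0.584 to 4.43% there, and at 2.06% in oligodendrocytes, below their 2.28 to 7.74%. Mural and fibroblast markers summed to 75.8 to 241 CPM in control OPC libraries and 95.0 to 385 in Rag2-/- ones. Endothelial markers summed to 18.6 to 51.3 and 22.5 to 94.5 CPM. Both sums were highest in the Rag2-/- library of pair 1, and their relation with Tlr3 was not tested. The cause of the Tlr3 difference was not tested.

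**Figure D5:**
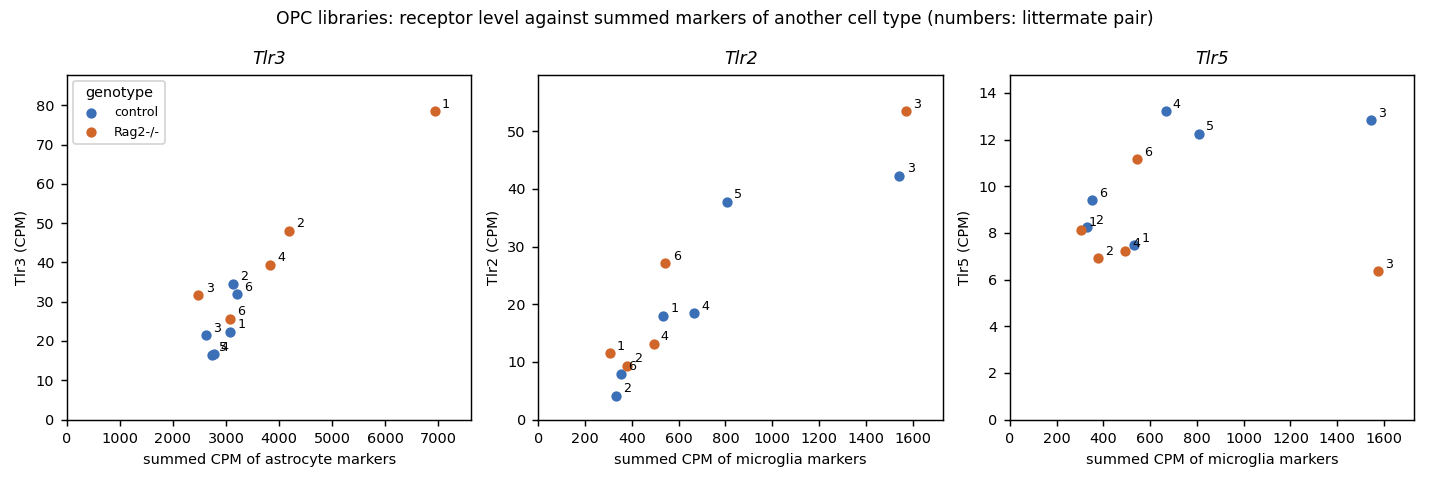
Each of the 11 OPC libraries as a point numbered by pair and coloured by genotype, with Tlr3 (CPM) against the summed CPM of 6 astrocyte markers, and Tlr2 and Tlr5 against the summed CPM of the microglia markers. Tlr3 is highest, at 78.4 CPM, in the library with the highest astrocyte sum, Tlr2 climbs with the microglia sum and is high in both libraries of pair 3, and Tlr5 stays at 6.35 to 13.2 CPM over the whole range.

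Tlr4 went the other way in OPCs. It had 3.82, 1.46, 5.55, 4.86, 7.01 and 3.55 CPM in the control libraries of pairs 1 to 6 and 2.09, 2.60, 2.71, 0.674 and 2.42 CPM in the Rag2-/- libraries of pairs 1, 2, 3, 4 and 6. The groups overlapped through the control library of pair 2, and the log2 fold change was -1.01 (SE 0.47, unadjusted p = 0.0475, edgeR adjusted p = 0.9998). These values rest on 7 to 67 counts per library.

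Astrocyte Tlr3, the member with the most counts there, had nearly equal levels in both genotypes. It had 145 to 284 CPM in control libraries (median 239) and 142 to 300 in Rag2-/- libraries (median 232), a log2 fold change of 0.03 (SE 0.13, edgeR adjusted p = 0.9998). Among the 4 members tested in astrocytes the smallest p was that of Tlr7, with -0.83 (SE 0.63, unadjusted p = 0.202). Among the 6 tested in oligodendrocytes it was that of Tlr4, with -1.78 (SE 1.07, unadjusted p = 0.122), from libraries of 1 to 53 counts. By littermate pair, oligodendrocyte Tlr9 was higher in the Rag2-/- mouse of all 4 pairs, by a mean of 3.71 ± 3.59 CPM (SD), and Tlr2 was lower in all 4, by a mean of -2.24 ± 2.78 CPM. Tlr1 was higher in all 4 but did not pass the filter there, and Tlr4 was higher in 2 and lower in 2. The fit with the pair as a block called 0 of the 6 members tested. How many of all genes had all 4 pairs in 1 direction was not computed, so these directions do not set the members apart.

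Whether the genotype effect differed among the 4 cell types was tested by the interaction terms of the joint fit. It called 0 members, against 0.248% of all genes, and 2 of 10 had an unadjusted p under 0.05, as had 11.2% of all genes, Tlr3 (unadjusted p = 0.0023, edgeR adjusted p = 0.155) and Tlr5 (unadjusted p = 0.0055, edgeR adjusted p = 0.207). Tlr5 in OPCs had 7.47 to 13.2 CPM in controls (median 10.8) and 8.12, 6.91, 6.35, 7.22 and 11.2 CPM in Rag2-/- libraries. In oligodendrocytes it had 2.77, 2.54, 5.44 and 0.251 CPM in the control libraries of pairs 1, 3, 5 and 6 and 0.0670, 0.789, 0.186 and 0.514 in the Rag2-/- ones. The Rag2-/- library was lower in 3 of these 4 pairs and the groups overlapped through the control library of pair 6. Tlr5 did not pass the low count filter of the oligodendrocyte fit, and without that filter its log2 fold change was -2.75 (SE 1.44, unadjusted p = 0.0554, edgeR adjusted p = 0.913). In microglia its median was 17.9 CPM in controls and 19.1 in Rag2-/- mice, and in astrocytes 0.359 and 0.0896.

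Sex was compared in the same fits, since Tlr7, Tlr8 and Tlr13 lie on the X chromosome. The edgeR test called 0 members in microglia (0.0467% of all genes were called), astrocytes (0.0407%), OPCs (0.0296%) and oligodendrocytes (0.0362%), and DESeq2 also 0 (11, 19, 13 and 422 of all genes), with 2, 1, 0 and 0 members at an unadjusted p under 0.05, where 3.92%, 6.73%, 4.30% and 8.23% of all genes were. The 3 X-linked members had log2 differences of females over males in microglia of -0.05 for Tlr7 (SE 0.15), 0.55 for Tlr8 (SE 0.39) and -0.02 for Tlr13 (SE 0.13). In astrocytes Tlr7 had -1.61 (SE 0.67, unadjusted p = 0.0269, edgeR adjusted p = 0.715), from 1 to 61 counts per library.

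The 2 microglia members were Tlr1 and Tlr6, which lie beside each other on chromosome 5. Tlr1 had 66.5 to 132 CPM in the 5 female libraries (median 102) and 59.7 to 88.2 in the 7 male libraries (median 65.3), a log2 difference of 0.54 (SE 0.15, unadjusted p = 0.0018, edgeR adjusted p = 0.867). Tlr6 had 32.0 to 49.6 CPM in females (median 36.6) and 25.2 to 34.6 in males (median 29.8), a log2 difference of 0.38 (SE 0.14, unadjusted p = 0.0127, edgeR adjusted p = 1.0). Both sets of groups overlapped. The fit without a filter on low counts called Tlr1 (0.54, edgeR adjusted p = 0.0286). With the littermate pair as a block, where pair 6 alone joins a male and a female, it was -0.54 (SE 0.30, edgeR adjusted p = 0.998).

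Among the 12 microglia libraries, members varied to different degrees. The coefficient of variation of CPM was 7.12% for Tlr2, 9.64% for Tlr3, 12.2% for Tlr9 and 13.6% for Tlr13, and rose to 29.7% for Tlr1 and 52.7% for Tlr8. Counting error alone gave 1.24% for Tlr2, 5.68% for Tlr3, 1.53% for Tlr9, 2.18% for Tlr13, 3.44% for Tlr1 and 13.7% for Tlr8. It leaves out the spread between mice, and other genes of like level were not compared. As a description over these 12 libraries, which share a lane, the members most alike were Tlr7 and Tlr13 (Pearson's r of log2(CPM + 1) = 0.82), Tlr4 and Tlr7 (0.77) and Tlr1 and Tlr6 (0.74), and the least alike Tlr2 and Tlr5 (-0.69).

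Genes with the most similar pattern over the microglia libraries were named by the highest r among 15002 genes. For Tlr1 these were the chemokine genes Cxcl10 (0.95), Ccl4 (0.91) and Ccl3 (0.89), and for Tlr9 Gm37233 (0.95), Atp6v0c-ps2 (0.95) and Pde4a (0.92). Tlr8 was most like Dennd4c (0.92), Neu4 (0.92) and Zfp800 (0.91), and Tlr4 most like Tmem181b-ps (0.92), Ypel3 (0.89) and Gcc2 (0.89). The closest gene was Canx for Tlr2 (0.90), Polr3gl for Tlr3 (0.91), Ctu2 for Tlr5 (0.90), Klhl36 for Tlr6 (0.90), Pnisr for Tlr7 (0.89) and Snap23 for Tlr13 (0.90).

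Over all 43 libraries, where cell type sets most of the pattern, the closest genes were Il1a (0.99) for Tlr9, Pdgfb (0.99) for Tlr2, C3ar1 (0.98) for Tlr7, Ctss (0.98) for Tlr13, Atf3 (0.98) for Tlr1, Ctsd for Tlr6 (0.97) and Tlr4 (0.96), and Tfec (0.94) for Tlr8. Tlr3 was closest to Nherf1 (0.96), Slc20a1 (0.96) and Ttyh3 (0.95), and Tlr5 to Marcksl1 (0.95), Amz1 (0.95) and Stard9 (0.95).

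Many genes for partners of these receptors were also higher in microglia. Against the mean of the other cell types 9 members were higher in microglia (36.5% of all genes were) and Tlr3 was lower (36.8%). Of the 2 other mouse receptors, Tlr12 was higher in microglia by 6.95 on the log2 scale (SE 0.43, edgeR adjusted p = 1.31e-17), with a mean of 13.2 CPM there, and Tlr11, at 0.343 CPM, did not pass the filter. All 10 accessory genes tested were higher, among them Cd14, the lipopolysaccharide co-receptor (5.75, SE 0.38, 710 CPM in microglia), Unc93b1, which carries endosomal receptors to endosomes (4.78), and Ly96, which encodes the TLR4 partner MD-2 (2.56, 14.6 CPM in microglia).

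Of the 5 adaptors 4 were higher in microglia, with Myd88 at 3.92 (SE 0.29) and Ticam1, the TRIF gene used by TLR3, at 3.67, and Sarm1, a TIR-domain NADase of neurons, was lower (-2.66). Ticam1 had a mean of 280 CPM in microglia, 35.7 in OPCs, 25.5 in astrocytes and 6.44 in oligodendrocytes, so that the cell type with the highest Tlr3 level was not the one with the highest Ticam1 level. Of 15 kinases and ubiquitin ligases 12 were higher, among them Ikbke at 3.66 (SE 0.27) and Irak2 at 2.73 (SE 0.17), and Tab1 was lower (-0.62), with a median log2 difference of 0.90 over the 15. All 5 transcription factor genes were higher, with Irf5 at 5.99 (SE 0.33) and Nfkb1 at 4.34 (SE 0.22). Of 5 negative regulators tested 4 were higher, with Tnfaip3, which encodes A20, at 5.80 (SE 0.25) and Nfkbia at 4.05 (SE 0.19), and Cyld was lower (-0.21). None of these genes was called by genotype, by sex or in the interaction test with edgeR.

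The members lie on GRCm39 at chr5:65082022-65090941 (Tlr1, minus strand), chr3:83743576-83749074 (Tlr2, minus), chr8:45848702-45864117 (Tlr3, minus), chr4:66745783-66849936 (Tlr4, plus), chr1:182782311-182805500 (Tlr5, plus), chr5:65108704-65203497 (Tlr6, minus), chrX:166086758-166113605 (Tlr7, minus), chrX:166024184-166047325 (Tlr8, minus), chr9:106099797-106104082 (Tlr9, plus) and chrX:105186810-105204533 (Tlr13, plus). Of the exon bases of Tlr3, 8.19% overlap Gm45542, a long noncoding RNA gene on the other strand, which had 0 counts in all 43 libraries, and 3.35% of those of Tlr4 overlap the antisense Gm69151, which was not counted. Of the windows of 50 bases in each transcript, 7.62% for Tlr7, 3.31% for Tlr5, 0.228% for Tlr6 and 0.174% for Tlr3 had an exact copy elsewhere in the genome, and 0 for the other 6, and no window was shared between members.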

How the data were processed

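Glial cells were immunopanned from mouse cortex and their RNA was amplified (Ovation V2), made into NEBNext Ultra libraries and sequenced as paired reads. The authors aligned reads with STAR 2.7.8a to GRCm39 and deposited raw counts per Ensembl gene from HTSeq for each library. The strand setting of the counting is not given in the sources used here, so reads of a gene and of an antisense partner could not be told apart. The 5 sums that name no gene, 33.5 to 52.0% of read pairs, entered neither the library totals nor any test. No 2 libraries of a group held the same counts.

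Genes that passed filterByExpr (minimum count 10, total 15) were tested with the edgeR 4.0.16 quasi-likelihood method in R 4.3.3 after TMM scaling, within each cell type (sex and genotype) and in a joint fit of all 43 libraries (cell type by genotype, plus sex). Tests were two-sided, p-values were adjusted by Benjamini-Hochberg over all genes tested, and genes with an adjusted p under 0.05 were called. The genotype fit in microglia and the joint fit, for microglia against astrocytes, were tested on simulated data. The other fits and contrasts were not. DESeq2 1.42.0, other scalings and filters, marker scores, control libraries alone, each library left out and a block for the littermate pair or the mouse were alternatives. Same-numbered libraries come from littermates and libraries of 1 mouse share a suspension; deviations of littermates from their group means correlated at 0.080 to 0.125 within cell types and those of unpaired mice at -0.039 to -0.016. Correlations of members with marker sums used log2(CPM + 1) and 100000 permutations, or all of them below 10 libraries. Each library is 1 mouse.

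All members were named, with genotype and sex values for those at an unadjusted p under 0.05 or with the smallest p. Members, markers and pathway lists were chosen with earlier results of these data known.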

Additional observations from a re-analysis of the deposited data

Results flagged for a closer look

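Within each group of 4 to 6 libraries, the highest or lowest library of a member was compared with the rest by Dixon's ratio. Of 80 member and group combinations 14 had a library far from the others, and in each case it was the highest. Chance gives about 1 in 20 for normally distributed values, a rate that does not hold for groups mostly at 0 counts. Of these 14, 10 were libraries of pair 3.

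In astrocytes, the control library of pair 3 stood apart for Tlr1 (2.97 CPM, next 0.748), Tlr2 (9.11, next 0.851), Tlr7 (6.46, next 2.20) and Tlr9 (5.19, next 0.729), and the Rag2-/- library of pair 3 for Tlr2 (4.48, next 0.838). In oligodendrocytes the control library of pair 3 stood apart for Tlr1 (1.79, next 0.158), Tlr9 (23.9, next 4.19) and Tlr13 (24.9, next 3.24), and the Rag2-/- library of pair 3 for Tlr6 (2.37, from 27 counts, with the others at 0). The control OPC library of pair 3 stood apart for Tlr13 (22.3, next 7.43). The summed microglia markers of these libraries were 388 and 319 CPM in astrocytes, 1199 and 1031 in oligodendrocytes and 1544 in control OPCs, the highest of their groups. Their part in the result was not tested beyond the fit with the marker score and the fit without pair 3.

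Tlr3 in oligodendrocytes stood apart in the Rag2-/- library of pair 6 (6.24 CPM, next 3.07). Tlr8 stood apart in the OPC Rag2-/- library of pair 1 (2.01, next 0.571), the astrocyte control library of pair 1 (1.21, next 0.122) and the astrocyte Rag2-/- library of pair 4, whose 0.215 CPM are 2 counts where the others had 0 and which is not distinguishable from them at this depth.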

How the results depend on the processing

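Counts of called members between microglia and each other cell type stayed at 10, 9 and 10 (9 or 10 for OPCs) in every alternative, 8 for each comparison beside leaving out single libraries. With single libraries left out the counts of members were 7 to 8 between astrocytes and OPCs, 6 to 7 between astrocytes and oligodendrocytes and 3 to 4 between OPCs and oligodendrocytes, and 0 for genotype and sex in each cell type. The share of all genes called with single libraries left out is not given here, so these counts do not set the members apart from other genes. With a microglia marker score and no microglia libraries, 2 members were called between astrocytes and OPCs, beside 23.4% of all genes. Among control libraries alone 1 (Tlr3) was called between OPCs and oligodendrocytes, beside 26.8% of all genes (40.7% with all libraries). Without a filter on low counts 1 member was called by sex in microglia (Tlr1, beside 0.0760% of all genes), 1 by genotype in OPCs (Tlr3, 0.266%) and 2 in the interaction (Tlr1 and Tlr3, 2.57%). The causes of these changes were not tested.

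Members that did not separate 2 neighbouring cell types changed direction under several alternatives. The log2 difference of OPCs over oligodendrocytes for Tlr2 was -0.12 with DESeq2, -0.075 with DESeq2 size factors, -0.061 with a mean count of at least 10, -0.24 among controls, -0.40 with the marker score and -0.024 without pair 3, and -0.24 to 0.28 with single libraries left out. For Tlr9 it was 0.26 among controls, 0.21 without mitochondrial counts, 0.31 without pair 3 and -0.40 to 0.46 with single libraries left out. For Tlr8 it was 0.040 without a filter, 0.37 without mitochondrial counts and -0.67 to 0.66 with single libraries left out, and for Tlr13 -1.10 to 0.067. Oligodendrocytes over astrocytes gave -0.017 among controls and -1.74 with the marker score for Tlr1, and astrocytes over oligodendrocytes -0.33 among controls for Tlr4. Without mitochondrial counts in the library size OPCs over microglia gave 0.40 for Tlr3 (-0.25 to 0.031 with single libraries left out) and OPCs over astrocytes 0.22 for Tlr6 (-0.48 to 0.092). That scaling moved the median of all genes by -0.45 between microglia and OPCs and by 0.40 between OPCs and oligodendrocytes. The cause was not tested for any of these.

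Leaving out 1 library added calls. Tlr1 was called between oligodendrocytes and astrocytes without the control (edgeR adjusted p = 0.0105) or Rag2-/- astrocyte library of pair 3 (0.0340) or the Rag2-/- oligodendrocyte library of pair 6 (0.0430). Tlr6 was called between astrocytes and oligodendrocytes without the Rag2-/- oligodendrocyte library of pair 3 (0.0023), and Tlr8 between oligodendrocytes and astrocytes without the control astrocyte library of pair 1 (0.0177). Tlr13 was called between OPCs and oligodendrocytes without the control OPC library of pair 3 (0.0278), the Rag2-/- oligodendrocyte library of pair 1 (0.0411) or the control ones of pairs 5 (0.0429) and 6 (0.0483).

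With the littermate pair as a block, 0 members were called by genotype or sex in any cell type, and Tlr1 by sex in microglia was -0.54 and Tlr13 by sex in oligodendrocytes 1.51, both reversed. With the mouse as a block, counts between cell types were 10, 9, 10, 7, 6 and 3 (69.3%, 68.6%, 65.5%, 40.5%, 46.1% and 37.7% of all genes), the interaction had 0 (0.0234%), and OPCs over oligodendrocytes gave 0.17 for Tlr8 and 0.086 for Tlr9. Neither block changed a call of a member. Depth limits the low members: 6 of 10 in astrocytes, 1 in OPCs and 4 in oligodendrocytes did not pass the filter.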

Other observations

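The summed CPM of 6 border macrophage markers (Mrc1, Cd163, Lyve1 and others) was 425 to 961 in microglia libraries, beside 13030 to 15888 for the microglia markers. In OPC and oligodendrocyte libraries these genes stood at medians of 4.79% and 7.28% of their microglia level, and at 1.19% in astrocytes. The share of the members' levels that comes from such cells was not tested.

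In microglia, the members' summed CPM per kb over the X-linked Tlr7, Tlr8 and Tlr13 was 101 ± 15.3 (SD, n = 12). Irak2, which encodes an IRAK family member of the MyD88 complex, had means of 286 CPM in microglia and 97.8 in astrocytes, and 35.3 and 12.2 in OPCs and oligodendrocytes. Sarm1 was highest in OPCs at 17.7 CPM, with 7.37 in oligodendrocytes, 5.08 in astrocytes and 1.84 in microglia.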
